A study of Zea mays with 12 samples.

Results

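The genes described here are those whose distribution between bundle sheath (BS) and mesophyll (M) cells differed between the mature and the maturing part of the maize leaf. For each gene the log2 BS/M ratio at the maturing stage was subtracted from the log2 BS/M ratio at the mature stage. The members were the genes above 0 in at least 1 of the 8 libraries of these stages, 44197 of the 110005 gene models in the table, of which 16632 were above 0 in each of the 8. A mean of at least 0.256 FPKM (fragments normalized to transcript length and library size) over the 8 libraries was required for the test, and 24296 members passed.

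Maize is a C4 plant, in which M cells fix carbon dioxide first and pass 4-carbon acids to the BS cells that ring each vein. BS cells release the carbon dioxide again and hold the Calvin cycle, and they also stand between the veins and the M cells in the movement of sugars, amino acids and ions. A gene with a BS or M bias is one whose transcripts are more abundant in that cell type, and such biases accompany the division of labour between the cells.

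All libraries came from cells captured by laser microdissection from leaves of 9-day-old seedlings of the inbred Mo17, and the captured RNA was amplified by 1 round. The methods of the paper name both Mo17 and B73 as sources of leaf sections. The groups were mature BS and mature M cells (leaf section 14, 9 cm), maturing BS and maturing M cells (section 9, 4 cm) and, outside the contrast, BS and M cells of the sink-source transition (SST, section 4, -1 cm), with 2 libraries in each group and 12 in all. The labels give the section numbers, and the stage names and positions follow the order of the sections along the leaf in the study. Nothing in the labels says that the 2 libraries of a group came from separate plants, so that p-values measure the spread between these libraries, which may be technical.

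The labelled cell types were compared with 4 marker genes each. The BS markers (NADP-malic enzyme, PEPCK, the Rubisco small subunit ssu1 and Rubisco activase) summed to 21126 to 31785 FPKM in mature BS and 1953 to 2397 FPKM in mature M libraries, and to 20175 to 21508 FPKM in maturing BS and 762 to 825 FPKM in maturing M libraries. The M markers summed to 14991 to 22533 FPKM in mature BS and 38548 to 47275 FPKM in mature M, and to 15978 to 16742 FPKM in maturing BS and 48400 to 51742 FPKM in maturing M. The markers therefore stood on the labelled side at both stages, but the BS markers were more abundant in the mature than in the maturing M libraries. As a ceiling of the ratios, the 95th percentile of log2 BS/M among the 200 most abundant BS genes was 3.51 at the mature stage and 5.03 at the maturing stage. The corresponding value of log2 M/BS among the 200 most abundant M genes was 2.03 at the mature stage and 2.04 at the maturing stage. The depth, estimated from the steps that single reads leave in low values, was 0.379 to 0.527 of the first maturing BS library in the mature libraries and 1.0 to 1.02 of it in the maturing libraries. The part of this ceiling and of depth in the changes below was not tested, except by an alternative given with the results.

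Cell bias changed at the mature stage in 323 of the 24296 genes tested, 1.33% of them, at an adjusted p below 0.01 (limma with Benjamini-Hochberg adjustment, as for every adjusted p below). The log2 BS/M was higher at the mature stage in 119 genes (0.49% of those tested), a move toward BS, and lower in 204 (0.84%), a move toward M. Across all genes tested the median change was 0.09 on the log2 scale, and it was -0.08 with the FPKM as deposited, which gave 100 genes toward BS and 239 toward M. The order of the 2 counts turned when single libraries were left out, with 193 toward BS and 146 toward M without maturing M replicate 1, 207 and 135 without maturing M replicate 2, 280 and 276 without mature BS replicate 1 and 219 and 207 without mature BS replicate 2. When maturing BS values were added to maturing M, the counts were 123 and 123. In each of the 323 genes all 4 BS minus M differences between mature libraries lay on one side of the 4 between maturing libraries, which was the case, above and below, in 21.3% and 16.2% of all genes tested. The genes were called on these same values, so this is a description and no further support for the calls. With the 8 libraries of these stages fitted alone, 32 genes were called toward BS and 77 toward M, and 47 of the 57 annotated calls described below were lost. A gene lying just inside the limit, GRMZM2G074850, had an adjusted p of 0.00984, and the next annotated gene outside it, GRMZM2G016958, had 0.0107.

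**Figure D1:**
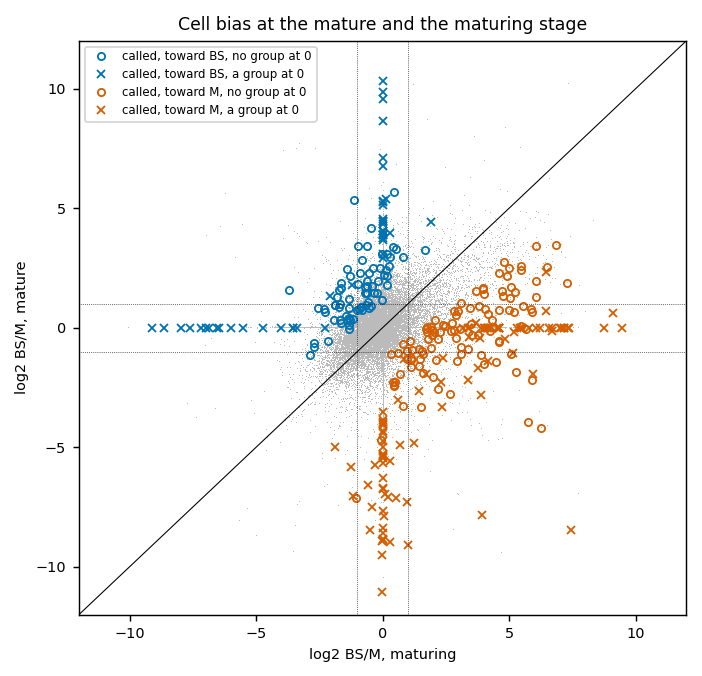
Fitted log2 BS/M at the mature stage (y axis) against the maturing stage (x axis) for each of the 24296 genes tested, with the 119 genes called toward BS in blue and the 204 called toward M in orange. Circles are genes with no group listed at 0 in both libraries and crosses are genes with such a group, many of which lie at 0 of one axis, where both cell types were listed at 0; dotted lines mark a log2 ratio of 1 and the solid line equal bias.

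Of the 323 genes, 147 had at least 1 of the 4 groups at 0 in both libraries, and 83 had 3 such groups, while among all genes tested 21.7% had a group at 0. An exact 0 may be a failed estimate in such a table, since 7.04% of the genes with a mean over 20 FPKM also had a group at 0, so no fold is given for these genes. The description therefore rests on the 176 called genes without such a group, 72 of which moved toward BS and 104 toward M. Of the 57 called genes that carry a name or annotation, 52 were among the 176.

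The kinds of change were counted with a fitted log2 BS/M of 1 in size as the limit of a bias. Among the 176 genes, 47 lost a BS bias, 22 turned from a BS to an M bias and 22 kept a weaker BS bias. In the other direction 33 genes gained a BS bias, 22 lost an M bias and 9 turned from an M to a BS bias, while 10 genes gained an M bias. With all 323 genes the counts were 87 lost BS, 36 turned to M, 23 weakened BS, 60 gained BS, 39 lost M, 11 turned to BS and 52 gained M. The turned counts among these 323 depended on the limit. With a bias called at an adjusted p below 0.01 at each stage, 16 turned to M and 7 to BS. A limit of 2 gave 11 and 0, and a limit of 0.5 gave 57 and 38.

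The order of these kinds depended on single libraries. Over all called genes, 405 lost a BS bias without maturing BS replicate 2 and 187 without maturing BS replicate 1. Without maturing M replicate 1 there were 75 lost BS against 142 lost M genes, and without maturing M replicate 2 there were 70 against 158. The genes that gained an M bias numbered 223 without mature M replicate 1, 187 without mature M replicate 2 and 133 without mature BS replicate 1. Those that gained a BS bias numbered 195 and 153 without mature BS replicates 1 and 2, 141 and 92 without mature M replicates 1 and 2, and 34 and 35 without maturing M replicates 1 and 2. Without maturing BS replicate 2 the lost M genes numbered 91. The genes that turned to M numbered 22 without maturing BS replicate 1 and 19 without either maturing M library, and those that turned to BS 25 without mature BS replicate 1, 22 without maturing BS replicate 2 and 19 without mature M replicate 1. With maturing BS values added to the maturing M libraries, an alternative described with trxh1, 43 genes lost a BS bias and 60 gained one.

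**Figure D2:**
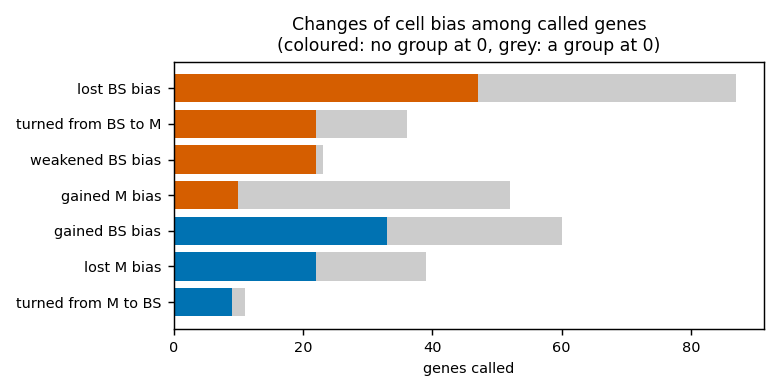
Number of called genes (x axis) in each kind of change of cell bias. Coloured bars are the 176 genes without a group at 0 (orange toward M, blue toward BS) and grey extensions are genes with a group at 0; the 47 genes that lost a BS bias form the longest coloured bar, and 15 called genes of other kinds are not drawn.

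Both cell types contributed to these changes. Among the 104 genes that moved toward M, the BS level was lower at the mature stage in 70 and the M level was higher in 57 (each adjusted p below 0.01, against 9.19% and 10.1% of all genes tested). Among the 72 that moved toward BS, the M level was lower in 44 and the BS level was higher in 32 (9.79% and 10.8% of all genes tested). These levels are the parts of the contrast that chose the genes, so that the counts are a description.

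The bias turned from BS to M in CST1 (GRMZM2G153358), of the MtN3 family of sugar transporters now called SWEETs. CST1 had 0.419 and 0.122 FPKM in mature BS and 0.876 and 0.778 FPKM in mature M libraries. It had 517 and 446 FPKM in maturing BS and 15.1 and 13.0 FPKM in maturing M libraries. The gene was thus far lower in both cell types at the mature stage, with the M libraries above the BS libraries, while at the maturing stage BS stood far above M. The change of log2 BS/M was -6.17 ± 0.45 (SE, adjusted p = 0.00049), and the BS level itself was lower by 9.89 on the log2 scale. The M bias at the mature stage rests on values under 1 FPKM and was not called (adjusted p = 0.0447).

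CST1 is one of the nodulin-type transporters, of which 29 were tested. Of these, 5 were called toward M (0.84% of all genes tested) and none toward BS (0.49%), with a median change of -1.21 against 0.09 over all genes tested. The annotations of this list come from genes that the study picked for a BS/M difference on these samples, so that the count is not independent evidence of a direction. The count at an unadjusted p below 0.05 was 18 of 29, in either direction, against 21.8% of all genes tested.

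The MtN3 gene GRMZM2G173669 had 124 and 103 FPKM in mature BS and 30.5 and 38.9 FPKM in mature M libraries, against 290 and 202 FPKM in maturing BS and 7.24 and 6.85 FPKM in maturing M. Its BS bias was thus kept but weaker, with a fall in BS and a rise in M, and the change was -3.35 ± 0.32 (adjusted p = 0.0015). The MtN21 gene GRMZM2G102737, of a family of amino acid and metabolite transporters, had 86.3 and 78.0 FPKM in mature BS and 22.1 and 37.6 FPKM in mature M, against 216 and 189 FPKM in maturing BS and 4.41 and 5.97 FPKM in maturing M. Its change was -3.73 ± 0.38 (adjusted p = 0.0021, and 0.0108 without maturing BS replicate 1). The MtN3 gene GRMZM2G000812 was listed at 0 in both mature BS libraries. The nodulin gene GRMZM2G127080 had a change of -3.23 ± 0.46 (adjusted p = 0.0083, reaching 0.0356 without any 1 library other than the mature M libraries). With maturing BS values added to maturing M, the calls of GRMZM2G173669 (adjusted p = 0.0194), GRMZM2G102737 (0.0183) and GRMZM2G127080 (0.0305) were lost.

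The summed level of vascular markers was lower at the mature stage in both cell types. In maturing M most of the sum lay in CAOMT (124 and 135 FPKM) and the laccase gene LAC1 (GRMZM5G842071, 69.3 and 62.3 FPKM). LAC1 had 4.32 and 5.76 FPKM in mature M. Not every member was lower, and the sucrose synthase gene sus2 was higher at the mature stage in both cell types. The sucrose synthase gene sus1 was higher in mature M (12.9 and 12.5 FPKM) than in maturing M (3.09 and 3.26 FPKM). Of 21 such genes, 5 passed the filter, and the list summed to 152 to 181 FPKM in mature BS and 55 to 81.6 FPKM in mature M, against 448 to 518 FPKM in maturing BS and 202 to 203 FPKM in maturing M. The phloem sucrose transporter gene sut1 had 41.5 and 43.6 FPKM in mature BS and 11.9 and 4.20 FPKM in mature M, against 288 and 282 FPKM in maturing BS and 5.45 and 2.01 FPKM in maturing M. Its change of -3.77 had an adjusted p of 0.0276 and was not called. The one vascular marker called was CAOMT, described below, which moved toward BS. Epidermis markers, 15 genes, summed to 6.96 to 17.1 FPKM in mature BS and 38.0 to 39.3 FPKM in mature M, against 4.95 to 7.67 FPKM in maturing BS and 38.5 to 39.0 FPKM in maturing M. No guard cell marker was matched. The part of these cells in the results was not tested.

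Further genes lost a BS bias or turned, with BS levels that fell below the M level or to it. The FAB1 homologue GRMZM2G072205, a 3-oxoacyl-acyl carrier protein synthase of fatty acid elongation, had 0.897 and 0.478 FPKM in mature BS and 2.15 and 2.29 FPKM in mature M, against 13.6 and 19.6 FPKM in maturing BS and 0.820 and 0.251 FPKM in maturing M. Its fitted bias turned, with a change of -5.92 ± 0.60 (adjusted p = 0.0019). The M bias at the mature stage was not called (adjusted p = 0.0466). The XTR8 homologue GRMZM2G113761, a xyloglucan-modifying enzyme of cell walls, had 0.133 and 0 FPKM in mature BS and 1.12 and 0.992 FPKM in mature M, against 10.7 and 7.63 FPKM in maturing BS and 2.24 and 1.97 FPKM in maturing M. It turned as well, by -4.03 ± 0.39 (adjusted p = 0.0017), with both cell types lower at the mature stage. Both mature BS values lie under the pseudocount of 0.256 FPKM, and the change ranged from -6.17 to -2.64 over the alternatives. The choline kinase gene GRMZM2G014303 lost its BS bias, with 0.560 and 0.294 FPKM in mature BS and 0.624 and 0.832 FPKM in mature M, against 13.2 and 11.9 FPKM in maturing BS and 0.367 and 0.184 FPKM in maturing M. Its change was -5.16 ± 0.45 (adjusted p = 0.001).

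The potassium channel gene K2.1 and the glutamine synthetase gene gln3 lost a bias of more than 5 on the log2 scale. K2.1 had 0.446 and 0.279 FPKM in mature BS and 0.335 and 0.449 FPKM in mature M, against 26.1 and 20.3 FPKM in maturing BS and 0.365 and 0.0782 FPKM in maturing M. Its change of -5.75 ± 0.79 (adjusted p = 0.007) lost the call without any single library, the adjusted p then reaching 0.0331. The gln3 gene, whose product assimilates ammonium, had 0.283 and 0.868 FPKM in mature BS and 0.287 and 0.192 FPKM in mature M, against 23.2 and 21.6 FPKM in maturing BS and 0.169 and 0.0846 FPKM in maturing M. Its change was -5.24 ± 0.53 (adjusted p = 0.0019, and 0.0104 without maturing BS replicate 1).

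**Figure D3:**
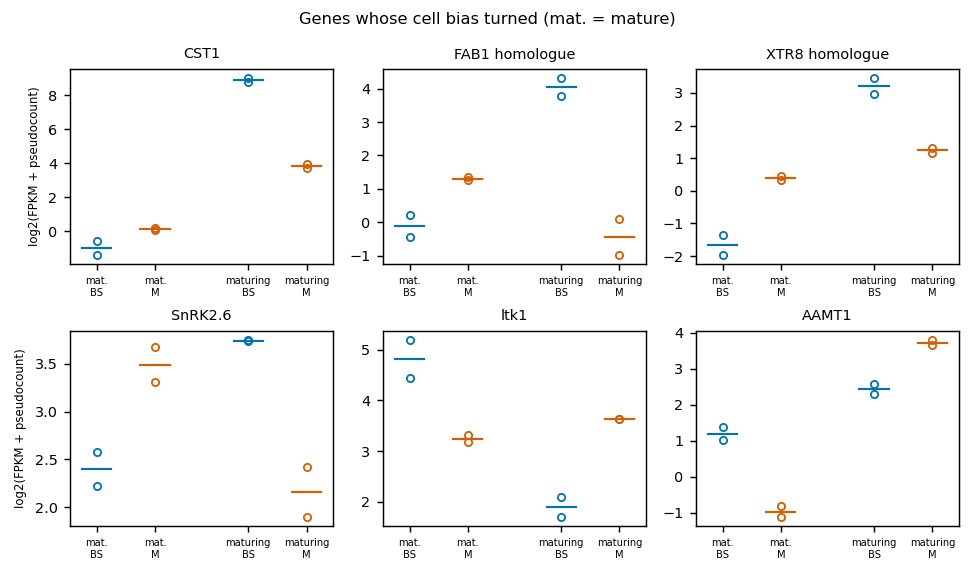
Values of the annotated genes whose bias turned under the naming rule, as log2(FPKM + 0.256) on the y axis, with mature BS, mature M, maturing BS and maturing M libraries from left to right; circles are libraries (2 in each group) and bars their means. In CST1, the FAB1 homologue, the XTR8 homologue and SnRK2.6 the BS libraries lie above the M libraries at the maturing stage and below them at the mature stage, and in ltk1 and AAMT1 the order is the opposite.

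SnRK2.6, a kinase of abscisic acid signalling, also turned in fitted bias, but its M bias at the mature stage was not called (adjusted p = 0.0181). It had 5.70 and 4.39 FPKM in mature BS and 9.63 and 12.5 FPKM in mature M, against 13.2 and 13.1 FPKM in maturing BS and 3.47 and 5.09 FPKM in maturing M. The change was -2.68 ± 0.35 (adjusted p = 0.0063), and the call was lost without mature BS replicate 2, mature M replicate 2, either maturing BS library or maturing M replicate 1, the adjusted p reaching 0.0219. PYL2, a receptor of abscisic acid, lost its BS bias with 26.6 and 24.8 FPKM in mature BS and 25.4 and 25 FPKM in mature M, against 53.0 and 50.0 FPKM in maturing BS and 15.7 and 11.9 FPKM in maturing M. Its change was -1.87 ± 0.23 (adjusted p = 0.0053, up to 0.0121 without mature BS replicate 2 or maturing BS replicate 1). These were the 2 members called of 29 abscisic acid receptors and kinases tested, and both moved toward M (0.84% of all genes tested). The median change of the 29 was -0.14, and 14 of them were above 0.

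In a further group the loss lay in the M level, which was higher at the mature stage. The MYB-related factor gene MYBR32 had 120 and 91.3 FPKM in mature BS and 91.9 and 97.8 FPKM in mature M, against 109 and 81.9 FPKM in maturing BS and 9.09 and 7.31 FPKM in maturing M. Its BS level differed by 0.15 on the log2 scale between the stages (adjusted p = 0.6), while the M level was higher by 3.50, and the bias changed by -3.35 ± 0.32 (adjusted p = 0.0015). The aquaporin gene PIP2-1, a plasma membrane water channel, had 297 and 264 FPKM in mature BS and 293 and 342 FPKM in mature M, against 200 and 204 FPKM in maturing BS and 62.9 and 56.8 FPKM in maturing M. The change was -1.93 ± 0.18 (adjusted p = 0.0014), the only call among 19 aquaporins tested (1.33% of all genes tested).

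Profilins, which bind actin monomers, gave 3 calls toward M among 5 profilins and actin regulators tested (0.84% of all genes tested). Part of the annotations of this list too comes from genes picked by the study on these samples, and the count is not independent evidence of a direction. The ARP3 homologue below, an actin-related protein called toward BS, is not on this list. PRO4 (GRMZM2G108780) had 546 and 640 FPKM in mature BS and 683 and 788 FPKM in mature M, against 898 and 797 FPKM in maturing BS and 230 and 211 FPKM in maturing M, a change of -2.25 ± 0.21 (adjusted p = 0.0014). The PRF1 homologue GRMZM5G877388 gained an M bias, with 431 and 397 FPKM in mature BS and 813 and 986 FPKM in mature M, against 543 and 500 FPKM in maturing BS and 435 and 398 FPKM in maturing M. Its change was -1.44 ± 0.19 (adjusted p = 0.0066, reaching 0.0198 without mature BS replicate 2, maturing BS replicate 1 or either maturing M library). The third, GRMZM2G140455, was listed at 0 in both maturing M libraries.

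The thioredoxin gene trxh1 kept its BS bias. It had 96.4 and 127 FPKM in mature BS and 39.3 and 20.9 FPKM in mature M, against 545 and 441 FPKM in maturing BS and 10 and 5.16 FPKM in maturing M. The change was -4.10 ± 0.51 (adjusted p = 0.0052), and the adjusted p reached 0.0266 without either mature BS library, either maturing BS library or maturing M replicate 2. When 5.53% of the mean maturing BS values was added to the maturing M libraries, so that the 95th percentile of log2 BS/M was the same at both stages, the change of trxh1 was -1.87 with an adjusted p of 0.0413. Of the 34 annotated genes called toward M, 14 lost the call in that alternative, among them K2.1, gln3, GRMZM2G173669 and GRMZM2G102737. None of the 23 called toward BS did. The addition lowers log2 BS/M at the maturing stage and cannot shrink a change toward BS, so it is no test of those 23 calls. CST1 was at -4.65 (adjusted p = 0.0023) there and MYBR32 at -2.64 (adjusted p = 0.0044).

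The MIPS2 homologue GRMZM2G392513, a synthase of inositol phosphate, gained an M bias. It had 15.3 and 8.49 FPKM in mature BS and 71.8 and 176 FPKM in mature M, against 459 and 502 FPKM in maturing BS and 288 and 269 FPKM in maturing M. The BS libraries were far lower at the mature stage, and the change was -4.06 ± 0.55 (adjusted p = 0.0069, reaching 0.0347 without mature BS replicate 2 or any maturing library). The copper chaperone-related gene GRMZM2G104041 also gained an M bias, with 3.95 and 2.59 FPKM in mature BS and 17.3 and 19.2 FPKM in mature M, against 9.49 and 6.11 FPKM in maturing BS and 5.36 and 5.64 FPKM in maturing M. Its change was -2.87 ± 0.39 (adjusted p = 0.007), and the adjusted p reached 0.0284 without mature BS replicate 2, either mature M library, maturing BS replicate 1 or either maturing M library.

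The gene cyp10 lost its BS bias. It had 2.39 and 1.72 FPKM in mature BS and 1.07 and 1.13 FPKM in mature M, against 13.7 and 9.27 FPKM in maturing BS and 0.349 and 0.112 FPKM in maturing M. Its change was -3.86 ± 0.50 (adjusted p = 0.0057, reaching 0.0119 without mature BS replicate 2, mature M replicate 2, maturing BS replicate 1 or maturing M replicate 2, and 0.0162 with BS values added).

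AUX18, an Aux/IAA gene of auxin signalling, and cdj2, a gene for a DnaJ-type chaperone, lost a BS bias, and the M level of each rose. AUX18 had 6.03 and 7.07 FPKM in mature BS and 6.92 and 6.5 FPKM in mature M, against 22.1 and 16.4 FPKM in maturing BS and 1.78 and 2.33 FPKM in maturing M. Its change was -3.11 ± 0.40 (adjusted p = 0.0056, reaching 0.0198 without any 1 library other than maturing BS replicate 2, and 0.0123 with BS values added). It was the one call among 27 Aux/IAA and ARF genes tested (1.33% of all genes tested), whose median change was 0.29. The cdj2 gene had 16.4 and 17.1 FPKM in mature BS and 17.6 and 17.1 FPKM in mature M, against 18.6 and 25.4 FPKM in maturing BS and 7.15 and 5.96 FPKM in maturing M. Its change was -1.75 ± 0.26 (adjusted p = 0.0094, reaching 0.0247 without any 1 library other than the maturing BS libraries, and 0.0175 with BS values added). With GRMZM2G104041 it made up the 2 calls among 23 heat shock proteins and chaperones tested (0.84% of all genes tested), whose median change was 0.02.

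The fructose-1,6-bisphosphatase gene GRMZM2G322953 and the ATS1 homologue below fall outside the rule for named genes and were chosen after their values were seen. GRMZM2G127080 above and SAD1 below fall outside it too, since the rule took only the largest changes called in each list. GRMZM2G322953, an enzyme of sugar phosphate metabolism, lost its BS bias, with 34.3 and 41.7 FPKM in mature BS and 27.9 and 23.2 FPKM in mature M, against 235 and 176 FPKM in maturing BS and 13.1 and 9.63 FPKM in maturing M. Its change was -3.58 ± 0.30 (adjusted p = 0.0009).

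The genes that moved toward BS included plastid fatty acid synthesis, in which acyl carrier proteins hold the growing chain. Of 54 members tested, 4 were called toward BS (0.49% of all genes tested) and 1, the FAB1 homologue above, toward M (0.84%), with a median change of 0.66 against 0.09 over all genes tested. The list was drawn up from names and annotations after the files had been seen, and part of its annotations come from genes that the study picked on these samples.

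The ACP2 homologue GRMZM2G149580 had 342 and 366 FPKM in mature BS and 41.5 and 49.2 FPKM in mature M, against 325 and 323 FPKM in maturing BS and 186 and 190 FPKM in maturing M. BS stayed level and M was lower at the mature stage, and the change was 2.18 ± 0.20 (adjusted p = 0.0014). The ACP4 homologue GRMZM2G136262 had 172 and 209 FPKM in mature BS and 60.0 and 54.3 FPKM in mature M, against 284 and 296 FPKM in maturing BS and 397 and 372 FPKM in maturing M. This gene gained a BS bias, and the change was 2.14 ± 0.22 (adjusted p = 0.0019). M was above BS at the maturing stage, but under the limit of a bias and not called (log2 BS/M -0.41, adjusted p = 0.098). The other ACP4 homologue, GRMZM2G122324, had 88.0 and 91.4 FPKM in mature BS and 9.24 and 9.47 FPKM in mature M, against 192 and 180 FPKM in maturing BS and 58.0 and 58.9 FPKM in maturing M. Its BS bias was stronger by 1.56 ± 0.16 (adjusted p = 0.0019).

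The pyruvate dehydrogenase E1 subunit gene PDHE1-B, which is not on that list, had 251 and 305 FPKM in mature BS and 116 and 86.5 FPKM in mature M, against 338 and 368 FPKM in maturing BS and 536 and 565 FPKM in maturing M. Its change was 2.1 ± 0.28 (adjusted p = 0.0061, reaching 0.026 without mature BS replicate 2, mature M replicate 2 or any maturing library). SAD1, a stearoyl-acyl carrier protein desaturase, had 449 and 500 FPKM in mature BS and 210 and 220 FPKM in mature M, against 214 and 208 FPKM in maturing BS and 216 and 212 FPKM in maturing M. Here the M level stayed and the BS level was higher, and the change was 1.16 ± 0.17 (adjusted p = 0.0084), which other scalings left at up to 0.0131 and leaving out maturing BS replicate 1 or either maturing M library at up to 0.0175. The ATS1 homologue GRMZM2G159890, an acyltransferase of plastid lipids, had 22.2 and 21.8 FPKM in mature BS and 12.4 and 11.5 FPKM in mature M, against 15.2 and 16.4 FPKM in maturing BS and 29.7 and 28.1 FPKM in maturing M. Its change was 1.73 ± 0.19 (adjusted p = 0.0029).

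**Figure D4:**
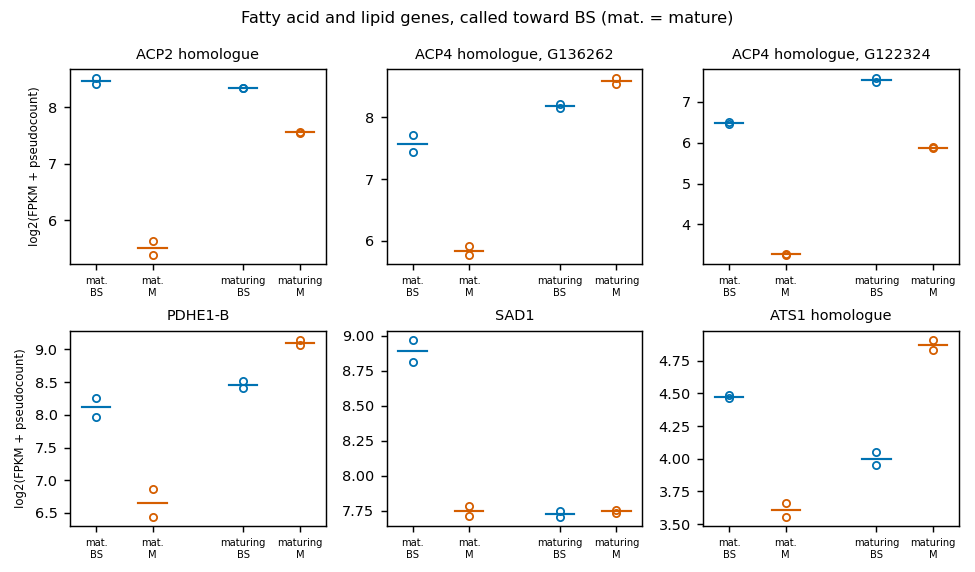
Values of fatty acid and lipid genes and of PDHE1-B, all called toward BS, as log2(FPKM + 0.256) on the y axis. PDHE1-B and the ATS1 homologue are not on the list of plastid fatty acid synthesis genes. Mature BS, mature M, maturing BS and maturing M libraries run from left to right. Circles are libraries (2 in each group) and bars their means. In each gene but SAD1 the mature M libraries lie below the maturing M libraries. In SAD1 the mature BS libraries lie above the other 6.

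AAMT1 and AAMT3, carboxyl methyltransferases that act on anthranilic acid, moved toward BS together. AAMT1 had 1.77 and 2.33 FPKM in mature BS and 0.309 and 0.206 FPKM in mature M, against 4.68 and 5.76 FPKM in maturing BS and 13.7 and 12.4 FPKM in maturing M. Its bias turned by 3.45 ± 0.34 (adjusted p = 0.0018), with both cell types lower at the mature stage. AAMT3 lost its M bias, with 9.16 and 6.08 FPKM in mature BS and 4.15 and 4.12 FPKM in mature M, against 5.86 and 7.26 FPKM in maturing BS and 18.3 and 15.5 FPKM in maturing M. The change was 2.15 ± 0.31 (adjusted p = 0.0082), which leaving out either mature M library, maturing BS replicate 1 or either maturing M library took to up to 0.0272 and another scaling to 0.0124.

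The kinase gene ltk1 turned toward BS. It had 21.5 and 36.4 FPKM in mature BS and 9.71 and 8.77 FPKM in mature M, against 2.98 and 3.99 FPKM in maturing BS and 12.1 and 12.1 FPKM in maturing M. The change was 3.31 ± 0.38 (adjusted p = 0.0036, reaching 0.0154 without mature M replicate 2, maturing BS replicate 1 or either maturing M library). CAOMT, an enzyme of lignin synthesis that is also among the vascular markers, gained a BS bias, with 101 and 127 FPKM in mature BS and 16.1 and 11.0 FPKM in mature M, against 172 and 123 FPKM in maturing BS and 124 and 135 FPKM in maturing M. Its change was 2.90 ± 0.33 (adjusted p = 0.0035, reaching 0.0163 without mature BS replicate 2 or either maturing M library). The factor gene MYB167 had 5.44 and 6.81 FPKM in mature BS and 3.25 and 2.78 FPKM in mature M, against 0 and 0.0813 FPKM in maturing BS and 0.864 and 0.819 FPKM in maturing M, a change of 2.86 ± 0.37 (adjusted p = 0.0058, reaching 0.0153 without mature M replicate 2 or either maturing M library). BX3, an enzyme of the benzoxazinoid defence compounds, gained a BS bias by 1.66 ± 0.23 (adjusted p = 0.007, reaching 0.0217 without any 1 library other than maturing BS replicate 2), the one call among 10 genes of that pathway (1.33% of all genes tested). The median change of the 10 was -0.29, and 4 of them were above 0. For MYB167, both maturing BS values lie under the pseudocount of 0.256 FPKM, so the size of its change depends on that constant. The MYB167 change ranged from 1.65 to 5.06 over the alternatives.

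Among genes of the cytoskeleton, an actin-related protein gene and a tubulin gene were called toward BS, while the 3 profilins above were called toward M. The ARP3 homologue AC205703.4_FG002, an actin-related protein, gained a BS bias with 10.4 and 15.1 FPKM in mature BS and 1.59 and 1.19 FPKM in mature M, against 2.55 and 1.84 FPKM in maturing BS and 1.57 and 1.91 FPKM in maturing M. Its change was 2.68 ± 0.39 (adjusted p = 0.0084, reaching 0.0328 without any 1 library other than mature BS replicate 1, and 0.0126 with another scaling). The alpha-tubulin gene tua4 lost an M bias with 44.5 and 56.6 FPKM in mature BS and 73 and 83 FPKM in mature M, against 8.63 and 10.5 FPKM in maturing BS and 76.1 and 54.1 FPKM in maturing M. Its change was 2.09 ± 0.30 (adjusted p = 0.0084, reaching 0.0309 without any 1 library other than maturing M replicate 2, and 0.0105 with another scaling), the one call among 17 tubulin and actin genes tested (1.33% of all genes tested), whose median change was -0.30. The auxin-responsive family gene GRMZM2G447151 was listed at 0 in all maturing libraries, and had 22.5 and 55.1 FPKM in mature BS and 1.08 and 1.44 FPKM in mature M.

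The C4 enzymes were described without a call being required. None of 8 genes of the C4 cycle list was called, against 1.33% of all genes tested. At that share a list of 8 would mostly hold no call, so this says nothing about the list. NADP-malic enzyme, which releases carbon dioxide in BS cells, had 4634 and 7567 FPKM in mature BS and 469 and 682 FPKM in mature M, against 10044 and 8880 FPKM in maturing BS and 251 and 267 FPKM in maturing M. Its change was -1.80 (95% interval -2.60 to -1.00, adjusted p = 0.0245). PEPCK (GRMZM2G001696), another decarboxylase, changed by -1.39 (-1.91 to -0.87, adjusted p = 0.0135) and Rubisco activase by -1.19 (-1.76 to -0.61, adjusted p = 0.0336). These 3 kept a log2 BS/M over 3 at both stages.

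The Rubisco small subunit gene ssu1 changed by -0.28 (-1.01 to 0.44), PPDK by 0.40 (-0.31 to 1.12) and PEPC by 0.85 (-0.03 to 1.73). Among regulators, G2 (GRMZM2G087804) changed by -0.40 (-1.12 to 0.33), GLK1 by -0.35 (-1.54 to 0.85), SCR by 0.41 (-0.44 to 1.25) and RLSB by 1.32 (0.25 to 2.40, adjusted p = 0.145). These intervals, which are 95% intervals, do not show that the biases were alike at both stages.

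The SST libraries took no part in the contrast, but they entered the fit and its estimate of the spread, and the genes were chosen for their bias at the maturing stage. Their bias at the SST is therefore a description. Among the 47 genes that lost a BS bias, BS was above M at the SST in 43 (53.6% of all genes tested), and 18 were called BS-biased there (2.28%). The fitted log2 BS/M of these genes had a median of 1.31 at the SST, 2.89 at the maturing stage and -0.05 at the mature stage. Of the 22 that turned toward M, 19 had BS above M at the SST, and 4 were called. Of the 33 that gained a BS bias, 19 had BS above M at the SST, and 4 were called BS-biased (2.28% of all genes tested) and 2 M-biased (2.05%).

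**Figure D5:**
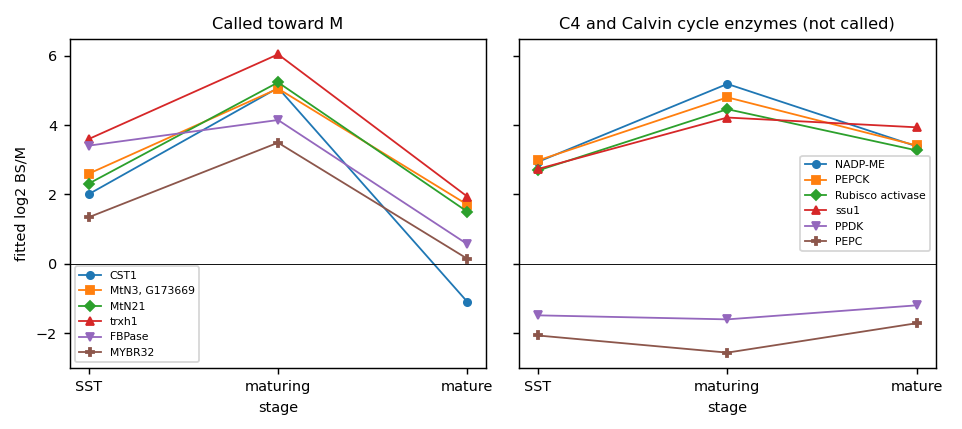
Fitted log2 BS/M (y axis) at the SST, maturing and mature stages for 6 of the genes called toward M (left) and for C4 and Calvin cycle enzymes that were not called (right). Each line is a gene. The 6 lines on the left reach their highest point at the maturing stage and their lowest at the mature stage. Only CST1 among them falls below 0. On the right, NADP-malic enzyme, PEPCK, Rubisco activase and ssu1 are also highest at the maturing stage, but lowest at the SST. All enzymes drawn stay on one side of 0.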

How the data were processed

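The authors captured BS and M cells by laser microdissection, amplified the RNA and deposited one FPKM value per gene and library. The submitters' processing notes name CASAVA 1.3, TopHat2 2.0.10, TopHat and Cuffdiff 2.1.1 and the build B73 RefGen_v3, while the paper names RefGen_v2. Reads were taken as from Mo17, though the paper names both inbreds, and gene models were from B73. The deposited FPKM were multiplied by factors of 0.909 to 1.12 that gave every library the same upper quartile, 2.56 FPKM among genes above 0 in any library. A pseudocount of 0.256 FPKM was added before taking log2, so that fold changes of low genes are understated. limma 3.58.1 in R 4.3.3 (lmFit, contrasts.fit, eBayes with trend; 6 residual degrees of freedom over 12 libraries) fitted 6 group means, and p-values were adjusted by Benjamini-Hochberg over 24296 genes. Tables used pandas 2.3.3 and figures matplotlib 3.10.9. The script was also tested on simulated libraries with known changes. These held no values at 0, and the changed genes had means above the common upper quartile. That test therefore does not cover genes near or at 0.

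Names came from RefSeq gene symbols (18986 IDs matched, 2639 with a name; assembly Zm-B73-REFERENCE-NAM-5.0, another build, so no coordinates are given) and from annotations in a shortened copy of the study's list of differentially expressed genes. Named were annotated, called genes reaching 5 FPKM in the mean of a group whose 4 library differences did not overlap between stages. Of these, the 10 largest each way and up to 5 that turned each way were taken. Called members of gene lists were added, by rule only those with the largest changes in each list. C4 enzymes and regulators were named without a call. Members and lists were chosen with earlier results of these data known. Depth could only be estimated, and no read counts were used. Promoter sequences were not analysed here.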

Additional observations from a re-analysis of the deposited data

Results flagged for a closer look

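The changes of cell bias differed between the mature and maturing stages by the interaction test itself in 119 genes toward BS and 204 toward M. Among the named genes the fitted bias turned toward M in CST1 (-6.17), the FAB1 homologue GRMZM2G072205 (-5.92), the XTR8 homologue GRMZM2G113761 (-4.03) and SnRK2.6 (-2.68), and toward BS in ltk1 (3.31) and AAMT1 (3.45), each a change of log2 BS/M. The M bias at the mature stage was not called by itself in CST1, the FAB1 homologue and SnRK2.6.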

How the results depend on the processing

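All 57 annotated called genes kept their direction in every alternative in which they were tested. Many of these alternatives could not turn it. Other filters, fits of the spread and the block kept the group means. Leaving out 1 library cannot turn a change whose library differences do not overlap between the stages. The calls themselves were lost in all 57 with a replicate block and in 47 with the 8 libraries alone. Of the 119 genes toward BS, 204 toward M, 285 that turned, lost or gained a bias, and 217 and 180 called genes whose BS and M levels were also called, other settings gave the following counts. With the 8 maturing and mature libraries alone they were 32, 77, 102, 71 and 58, and 85 of the 109 calls were shared. With no group listed at 0, an alternative chosen after seeing the data, they were 73, 107, 147, 118 and 111. With an adjusted p below 0.05 they were 667, 686, 1066, 766 and 671. A pseudocount of 1 FPKM gave 195 toward BS and 331 with the BS level called, and adding maturing BS values to maturing M gave 123 toward M. With a pseudocount of the upper quartile over 100, the calls of MYB167, the XTR8 homologue, K2.1 and cyp10 were lost, among others. Leaving out 1 library gave 117 to 280 toward BS, 135 to 511 toward M, 320 to 688 that turned, lost or gained, 137 to 565 with the BS level called and 151 to 385 with the M level called. The most calls came without maturing BS replicate 2, and 35 of the 57 lost the call in at least 1 such fit. The cause was not tested. Same-numbered BS and M libraries did not deviate together across genes (correlations 0.03, -0.01 and -0.02). These values cannot say whether such libraries shared plants or a preparation, so they do not decide between the fits with and without a block. A replicate block, with 3 residual degrees of freedom, left 0 calls by limma in each of these counts, with 4807 genes at an unadjusted p below 0.05 and 251 at an adjusted p below 0.05.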
